A study of Homo sapiens with 4 samples.

Results

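The genes described here encode drug metabolism enzymes and ABC exporters: cytochromes P450 whose family number begins with 1 to 4, UDP-glucuronosyltransferases (UGT), glutathione S-transferases (GST), sulfotransferases (SULT), and the ABCB, ABCC and ABCG transporters. They were chosen by symbol, with at least 20 counts summed over the 4 libraries of the study and with pseudogene symbols left out. Of 126 such symbols among the 42169 genes of the count table, 62 reached the minimum, 36 had 1 to 19 counts and 28 had no count in any library. The summed count chose the members and does not compare the clones, but a scarce gene could reach the minimum mainly through 1 clone. Just inside the minimum lay CYP2S1 and GSTA1 with 20 counts each and ABCB11 and GSTA2 with 21 each, and just outside it lay CYP2D7 with 18.

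RNA came from Huh7, a line grown from a human liver tumour. The tested cells were clone 18, in which the genes of TTP and Brf1 were knocked out (DKO), and the control cells were clone 1 with both genes intact, labelled WT. Each clone gave 2 libraries, and all cells had DMSO for 3 h and then actinomycin D, a transcription blocker, at 5 µg/ml for 10 min. With 1 clone per genotype, the knockout and any other difference between the clones cannot be told apart. Whether the 2 libraries of a clone are separate cultures is not in the labels. The p-values therefore cover only the variation seen among these libraries, and that may be technical.

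TTP and Brf1, encoded by ZFP36 and ZFP36L1, are RNA-binding proteins that attach to AU-rich stretches in 3′ untranslated regions and bring about decay of the bound mRNA. Cytochromes P450 oxidise drugs, steroids and fatty acids, and UGT, GST and SULT enzymes attach a polar group to the products. ABC transporters of the B, C and G groups then pump conjugates, bile salts and lipids out of the cell. Hepatocytes are known for high levels of many of these genes, under the nuclear receptors PXR and CAR and the aryl hydrocarbon receptor AHR, and hepatoma lines are known to keep a part of them.

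Counts on genes totalled 10271428 and 16430228 in the DKO libraries and 9685798 and 12507263 in the control libraries. Levels are in CPM (the counts of a gene divided by all gene counts of its library, times 1000000), and 3 counts amount to between 0.183 and 0.310 CPM in these libraries. ZFP36 mRNA averaged 36.8 CPM in the DKO libraries and 26.7 CPM in the control libraries, and ZFP36L1 mRNA averaged 133 CPM in DKO and 122 CPM in control, so the mRNA levels do not check the knockout label. The share of mitochondrial transcripts was 3.59% and 1.16% in the DKO libraries, against 2.53% and 0.448% in the control libraries. Of 9 hepatocyte or hepatoma markers, all 9 were detected, with summed levels of 28296 and 24800 CPM in the DKO libraries and of 27190 and 26189 CPM in the control libraries. Of these 9, TTR was higher and AFP lower in DKO. Of 7 intestinal epithelium markers, 3 were lower in DKO (CDX2, CDH17 and SI), the summed level was 416 and 444 CPM in DKO against 603 and 613 CPM in control, and FABP2 had no count. The part of that shift in the results below was not tested. Of 4 endothelial markers 3 had no count in any library, and the summed level was at most 0.0800 CPM. None of the tested markers of fibroblasts (4), leukocytes (1) or cholangiocytes (3) passed. Their summed levels were 139 and 135 CPM in DKO against 90.8 and 135 CPM in control for fibroblasts, 108 and 124 CPM in DKO against 77.1 and 75.2 CPM in control for leukocytes, and 476 and 607 CPM in DKO against 529 and 762 CPM in control for cholangiocytes. The leukocyte sum was nearly all LYZ (108 and 123 CPM in DKO, 76.7 and 74.9 CPM in control), while CD3E and MS4A1 had no count. Most of the fibroblast sum was COL1A2. In bulk RNA, fewer cells with a transcript and less of it per cell cannot be told apart.

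Across 13359 genes tested with edgeR's quasi-likelihood test, 2.24% were called higher and 3.14% lower in DKO at a Benjamini-Hochberg adjusted p under 0.05. Of the 62 members, 50 were tested and 12, with at most 36 counts each, fell below the filter on low counts. Of the 50, UGT2B4, ABCG8 and CYP19A1 rose (6%), CYP2B6 fell (2%) and 46 did not pass. The DKO libraries lay above both control libraries for 15 tested members (30%, against 23.7% of all tested genes) and below both for 14 (28%, against 26.2%). The median log2 fold change of DKO over control was 0.08 over the tested members and 0.0015 over all tested genes. The filter asked for about 0.878 CPM in at least 2 libraries. ABCG8 and CYP19A1 met it in the DKO libraries alone and CYP2B6 in the control libraries alone. These 3 thus entered the test through 1 clone, and the count of 4 calls carries no weight of its own. The same limit holds for CYP3A5 and UGT2B7, which met the filter in the DKO libraries alone, and for UGT1A1, which met it in the control libraries alone. Under a minimum mean of 1 CPM, which takes no account of the clones, CYP19A1 and CYP2B6 were still called and ABCG8 was not tested. At an unadjusted edgeR p under 0.05 there were 6 members higher and 5 lower. Over all tested genes the shares were 9.57% higher and 10.6% lower, so the members lay near the background. Single genes are also given below under fits without 1 library or without a filter. A fit without 1 library takes its spread from 1 clone alone, and the fit without a filter called 1194 genes in all. A pass in such a fit says less than a pass with all 4 libraries. Fits without control replicate 1 called 2193 genes in all, against 718 with all 4 libraries.

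**Figure D1:**
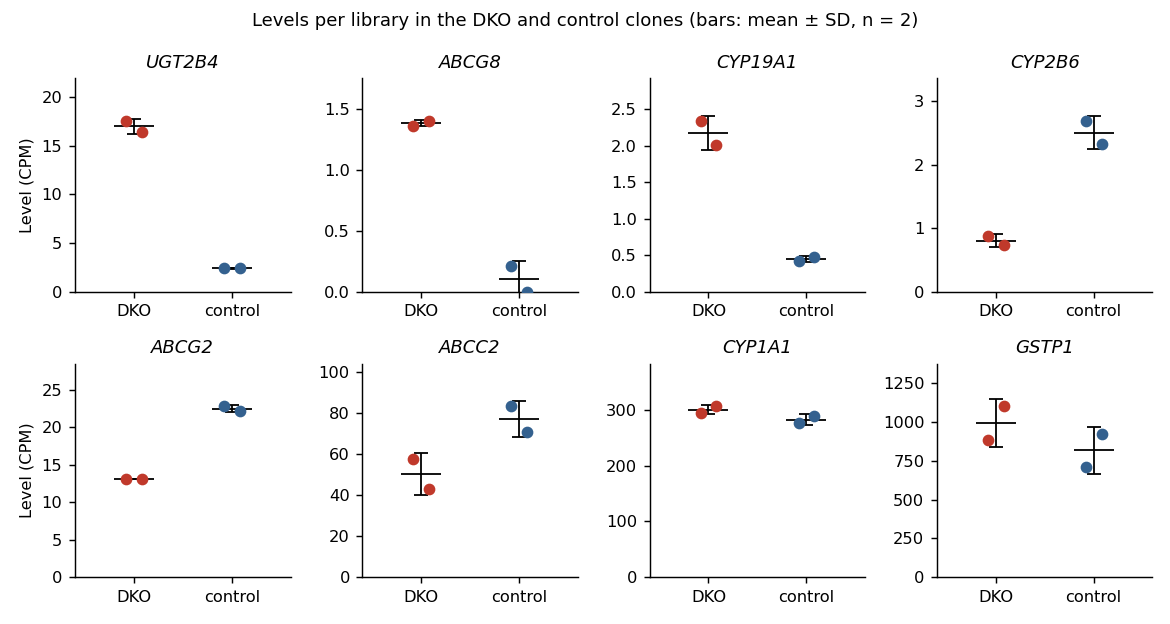
Level in CPM (vertical axis of each panel, from 0) of 8 members in each library, with points for the libraries and bars for the mean ± SD of 2 libraries, DKO at the left and control at the right. UGT2B4, ABCG8 and CYP19A1 lie higher in both DKO libraries and CYP2B6, ABCG2 and ABCC2 lower, while the GSTP1 points of the clones overlap.

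UGT2B4, which glucuronidates bile acids and oestrogens, was the member with the lowest adjusted p. Its level was 17.5 and 16.4 CPM in the DKO libraries and 2.37 and 2.40 CPM in the control libraries. Both DKO libraries were high, both control libraries were low, and the clones did not overlap. The means were 16.98 ± 0.772 CPM in DKO and 2.39 ± 0.0170 CPM in control (SD, n = 2 each), a 7.11-fold difference, or 2.83 on the log2 scale (SE 0.28, edgeR adjusted p = 2.75e-05). The call held under all 11 alternatives run, with log2 fold changes between 2.16 and 2.86. The gene lies on chromosome 4 (69480165 to 69526014, hg38) within the UGT2 cluster.

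The other UGT2 members of that cluster were all scarce. UGT2B7, which glucuronidates steroids and morphine, had 1.17 and 1.03 CPM in DKO and 0.723 and 0.400 CPM in control, without overlap, and the fitted difference of 1.001 on the log2 scale (SE 0.54) missed the threshold (edgeR adjusted p = 0.315). UGT2A1, best known from the nasal epithelium, differed by 0.68 (edgeR adjusted p = 0.564), and its libraries overlapped. UGT2A3, UGT2B11 and UGT2B15 had 22, 31 and 22 counts in all and were not tested. Reads of near-identical UGT2B genes may be shared or lost in counting, which makes these low values uncertain. The same limit holds for the levels of UGT2B4, which had 23 and 30 counts in the control libraries. Of the 50 tested genes nearest to UGT2B4 outside the member list, 0 were higher and 7 lower in DKO, with a median log2 fold change of -0.12. Over all tested genes 2.24% were higher and 3.14% lower, and the cause of the larger share lower near UGT2B4 was not tested. UGT2B4 made up 79.7% and 81.4% of the UGT members' summed level per length in the DKO libraries, against 43.2% and 45.5% in the control libraries. UGT1A1, the bilirubin-conjugating enzyme, had 0.682 and 0.852 CPM in DKO and 1.03 and 1.04 CPM in control, and did not pass (log2 fold change -0.39, edgeR adjusted p = 0.716). UGT1A genes share their last exons, so reads that fall there cannot be given to one gene.

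ABCG8 joins ABCG5 in a transporter that moves cholesterol and plant sterols into bile. ABCG8 had 14 and 23 counts in the DKO libraries, against 2 and 0 in the control libraries. Its mRNA was scarce in both clones and close to absent from the counts of the control clone. In CPM the DKO libraries had 1.36 and 1.40 and the control libraries 0.206 and 0 (log2 fold change 3.80, SE 0.80, edgeR adjusted p = 0.0131). From summed counts of 37 in DKO and 2 in control, the ratio was 15.4, with an exact 95% interval of 3.97 to 132 that covers counting error alone. The call was lost with DESeq2 (3.902, DESeq2 adjusted p = 0.0591). Without control replicate 2 the log2 fold change was 2.72 (edgeR adjusted p = 0.0411), and without control replicate 1, where the remaining control library has no count, the fitted 7.18 depends on the small count that the method adds.

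ABCG5, the partner gene, was outside the member list with 3 and 5 counts in the DKO libraries and 0 and 0 in the control libraries. With 3 counts set in place of 0 for the control libraries together, the ratio of its summed counts was 2.22. That ratio leaves out counting error, and without a filter the edgeR adjusted p of ABCG5 was 0.251. The start windows of the genes (250 bases before to 50 after the start, RefSeq, GRCh38.p14) face opposite ways and overlap by 231 bases. The ABCG8 window is shown because both genes were counted more often in DKO and share this stretch. Capitals mark the bases that also lie in the ABCG5 window.
ABCG8 (chr2:43838721-43839020, plus strand): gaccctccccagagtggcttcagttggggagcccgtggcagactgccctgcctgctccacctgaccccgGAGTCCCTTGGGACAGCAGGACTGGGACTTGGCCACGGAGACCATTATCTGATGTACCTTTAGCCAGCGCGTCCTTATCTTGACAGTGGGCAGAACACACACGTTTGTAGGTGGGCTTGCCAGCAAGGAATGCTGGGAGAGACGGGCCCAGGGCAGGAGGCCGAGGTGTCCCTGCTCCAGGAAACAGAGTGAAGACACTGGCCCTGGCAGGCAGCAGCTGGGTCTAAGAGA
GENCODE 29 gives ABCG8 (chromosome 2, 43831942 to 43882987) and ABCG5 (43812472 to 43838865) on opposite strands with overlapping ends. No source used here gives the strand setting of the counting, so reads from the overlap may not have been kept apart. The 50 tested genes nearest to ABCG8 had a median log2 fold change of 0.12.

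ABCG2, the breast cancer resistance protein that exports drugs and urate, ran the other way. Its level was 13.0 and 13.1 CPM in the DKO libraries and 22.8 and 22.2 CPM in the control libraries, with no overlap and a narrow spread within each clone. The fitted log2 value was -0.77 (SE 0.22), which missed the threshold (edgeR adjusted p = 0.0538). Leaving out control replicate 1 brought it past the threshold (-0.79, edgeR adjusted p = 0.0163), as did the fit without a filter (-0.76, edgeR adjusted p = 0.0379), and over all alternatives the adjusted p ran up to 0.443. ABCG1, which loads cholesterol onto lipoproteins, had 2.63 and 1.46 CPM in DKO and 1.65 and 1.28 CPM in control, which overlapped (log2 fold change 0.45, edgeR adjusted p = 0.606).

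Cytochromes P450 of families 1 to 3, which act on drugs and pollutants, gave 8 members of 24 symbols. Of 6 tested, CYP2B6 fell, 0 rose and 5 did not pass. CYP2B6, which oxidises drugs such as cyclophosphamide and is induced through CAR, had 0.876 and 0.730 CPM in the DKO libraries and 2.68 and 2.32 CPM in the control libraries. Both DKO libraries lay below both control libraries, at levels of 9 and 12 counts in DKO against 26 and 29 counts in control. The log2 fold change was -1.63 (SE 0.43, edgeR adjusted p = 0.0374). It did not pass with DESeq2 (-1.64, DESeq2 adjusted p = 0.150), without DKO replicate 1 (-1.73, edgeR adjusted p = 0.163) or without DKO replicate 2 (-1.51, edgeR adjusted p = 0.319). CYP2B6 lies on chromosome 19 (40991250 to 41018398), and its 50 tested neighbours had a median of -0.05.

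CYP1A1, the main target of AHR, was by far the most abundant of these enzymes. It had 295 and 307 CPM in the DKO libraries and 276 and 290 CPM in the control libraries, and held between 89.3% and 92.05% of the summed level per length of its group in every library. The clones differed by 0.10 on the log2 scale (SE 0.19, edgeR adjusted p = 0.827), which is within the error. CYP1B1, another AHR target, had 20.3 and 20.8 CPM in DKO and 21.6 and 16.95 CPM in control, which overlapped (0.11, edgeR adjusted p = 0.836). CYP2R1, which hydroxylates vitamin D, had 7.59 and 5.84 CPM in DKO and 7.95 and 7.12 CPM in control (-0.16, edgeR adjusted p = 0.793). CYP2J2, an epoxygenase of arachidonic acid, differed by -0.07 (edgeR adjusted p = 0.926).

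CYP3A5 was the one CYP3A enzyme among the members, and it oxidises many of the drugs that CYP3A4 also takes. It had 2.53 and 2.07 CPM in the DKO libraries and 1.24 and 0.640 CPM in the control libraries, without overlap. The fitted log2 value of 1.32 (SE 0.45) missed the threshold (edgeR adjusted p = 0.104). Without a filter it was 1.33 (edgeR adjusted p = 0.0447). The control libraries decided its size, with 1.79 without control replicate 1 (edgeR adjusted p = 0.0207) and 0.90 without control replicate 2 (edgeR adjusted p = 0.420). Several enzymes that dominate drug oxidation in the liver were outside the member list. CYP3A4, CYP2E1 and CYP2A6 had no count in any library, CYP1A2 had 2 counts in all and CYP2D6 had 12. CYP2S1 and CYP2U1 were members but were not tested.

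**Figure D2:**
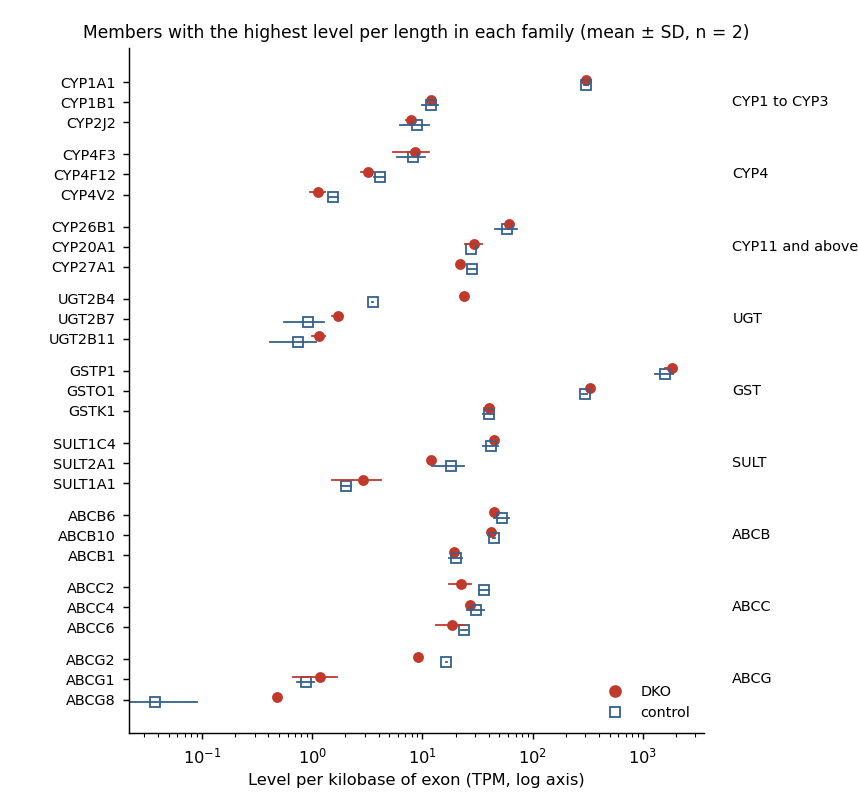
Level per kilobase of exon in TPM (horizontal log axis) for the 3 members with the highest level in each family, with filled circles for the DKO mean, open squares for the control mean and lines for the SD of 2 libraries. GSTP1, GSTO1 and CYP1A1 lie highest in both clones, and the SD line of ABCG8 in control runs off the axis because 1 library had no count.

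Family 4 enzymes, which hydroxylate fatty acids and leukotrienes, gave 4 members, and of 3 tested none passed. CYP4F3 had 16.5 and 10.2 CPM in the DKO libraries and 14.8 and 9.75 CPM in the control libraries, with a spread inside each clone larger than the difference between them (log2 fold change 0.12, edgeR adjusted p = 0.856). CYP4F12 differed by -0.30 (edgeR adjusted p = 0.604) and CYP4V2 by -0.38 (edgeR adjusted p = 0.546), both without overlap.

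Steroid, vitamin and sterol enzymes numbered 11 and above gave 6 members, all tested, of which CYP19A1 rose and 5 did not pass. CYP19A1, the aromatase that turns androgens into oestrogens, had 2.34 and 2.01 CPM in the DKO libraries and 0.413 and 0.480 CPM in the control libraries. Both DKO libraries were high, and the control libraries rested on 4 and 6 counts. The means of 2.17 ± 0.232 CPM in DKO and 0.446 ± 0.0472 CPM in control (SD, n = 2 each) differed 4.87-fold, and the fitted log2 value was 2.24 (SE 0.49, edgeR adjusted p = 0.0157). It did not pass with DESeq2 (2.28, DESeq2 adjusted p = 0.0665), without DKO replicate 1 (2.16, edgeR adjusted p = 0.0567) or with spike-in totals as library sizes (1.58, edgeR adjusted p = 0.185). The gene lies on chromosome 15 (51208057 to 51338610), where its 50 tested neighbours had a median of 0.04.

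CYP26B1, which clears retinoic acid, was the most abundant of that group, with 92.4 and 82.9 CPM in the DKO libraries and 67.2 and 92.4 CPM in the control libraries. The clones overlapped, and the difference of 0.14 did not pass (edgeR adjusted p = 0.778). CYP20A1, an orphan enzyme, had 28.6 and 23.2 CPM in DKO and 22.9 and 22.6 CPM in control (0.19, edgeR adjusted p = 0.675). CYP27A1, the mitochondrial sterol hydroxylase of bile acid synthesis, had 17.4 and 19.8 CPM in DKO and 21.1 and 24.0 CPM in control, without overlap (-0.26, edgeR adjusted p = 0.546). CYP27B1, which activates vitamin D, and CYP39A1, an oxysterol hydroxylase, did not pass either.

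Glutathione S-transferases gave 12 members of 17 symbols, and of 10 tested none passed. Of the 10, 9 had positive log2 fold changes, between 0.07 and 0.71, and GSTZ1 a negative one. The median was 0.27 against 0.0015 over all tested genes. With spike-in totals as library sizes it was -0.46 against -0.68 over all genes, so the sign turned with the scaling. The group lay 0.26 and 0.22 above the median gene in these fits. Over all the alternatives it lay above the median gene of the same fit by values between 0.13 and 0.43. GSTP1, the pi-class enzyme that many tumours hold at high levels, had 882 and 1102 CPM in the DKO libraries and 712 and 923 CPM in the control libraries. The clones overlapped, with a difference of 0.29 (SE 0.24, edgeR adjusted p = 0.538). Per length, GSTP1 averaged 1822 ± 238 TPM in DKO and 1586 ± 301 TPM in control (SD, n = 2 each), the highest of all members. It held between 77.2% and 80.4% of the summed GST level in every library.

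The start window of GSTP1 holds the NRF2 motif TGACNNNGC, shown here because this was the most abundant member, with capitals for the match.
GSTP1 (chr11:67583735-67583765, plus strand): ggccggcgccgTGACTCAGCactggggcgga
The motif, searched on both strands, occurred in 15 of 72 start windows of the 51 members with RefSeq windows (20.8%) and in 13.3% of all 35116 windows. The AHR-ARNT core GCGTG occurred in 23 of the 72 (31.9%) and in 36.5% of all windows, including 1 match at CYP1A1. A match is a run of letters, and binding was not measured.

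GSTO1, an omega-class enzyme that reduces dehydroascorbate, had 150 and 168 CPM in the DKO libraries and 132 and 139 CPM in the control libraries, without overlap (0.24, SE 0.19, edgeR adjusted p = 0.513). GSTK1, a mitochondrial and peroxisomal enzyme, had 44.0 and 53.3 CPM in DKO and 42.4 and 49.0 CPM in control, which overlapped. GSTZ1, an isomerase of tyrosine breakdown, had 3.31 and 3.895 CPM in DKO and 4.75 and 7.20 CPM in control (-0.72, SE 0.32, edgeR adjusted p = 0.215). GSTZ1 depended on which control library was kept, with -1.002 without control replicate 1 (edgeR adjusted p = 0.0259) and -0.35 without control replicate 2 (edgeR adjusted p = 0.750). GSTM3 had 41.2 and 40.0 CPM in DKO and 30.4 and 31.7 CPM in control. Its clones did not overlap, and the difference of 0.40 (SE 0.20) did not pass (edgeR adjusted p = 0.275). GSTM1, GSTM2 and GSTM4 are close in sequence and their counts are uncertain for that reason.

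Sulfotransferases gave 5 members of 13 symbols, and of 4 tested none passed. SULT1C4, known from fetal tissues, led with 37.0 and 36.5 CPM in the DKO libraries and 36.8 and 29.02 CPM in the control libraries, which overlapped (0.17, edgeR adjusted p = 0.689). SULT2A1, which sulfates bile acids and adrenal androgens, had 6.52 and 7.06 CPM in DKO and 11.98 and 7.44 CPM in control (-0.48, SE 0.28, edgeR adjusted p = 0.354). SULT1A1, the phenol sulfotransferase, had 4.77 and 9.92 CPM in DKO and 5.27 and 4.48 CPM in control. Its high value came from DKO replicate 2, and the log2 fold change was 0.64 (edgeR adjusted p = 0.302) with that library and -0.036 without it. SULT1A1 and SULT1A2 are near-identical, so their reads may not have been kept apart.

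**Figure D3:**
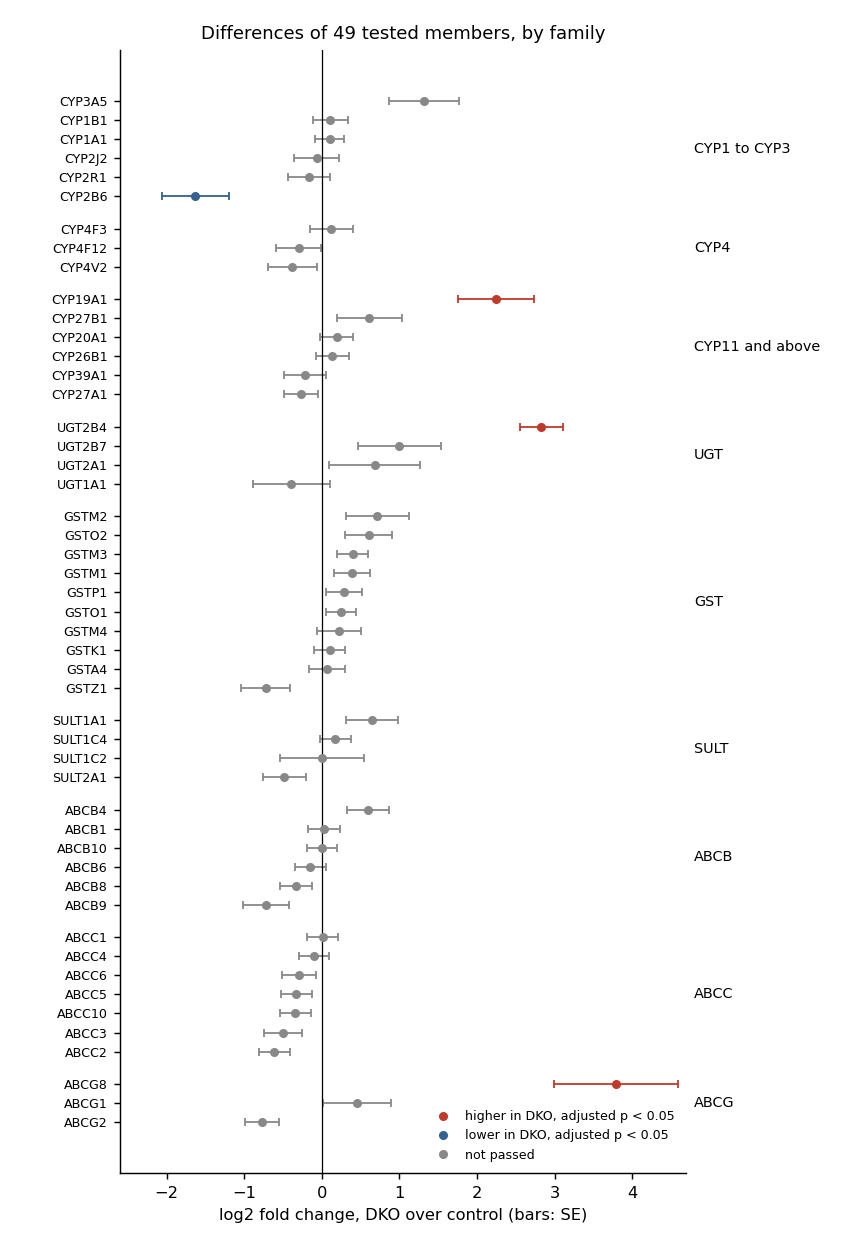
Log2 fold change of DKO over control (horizontal axis) for 49 of the 50 tested members, grouped by family, with lines for the SE. UGT2B4, ABCG8 and CYP19A1 are marked as higher and CYP2B6 as lower, and 6 of the 7 ABCC members lie left of 0.

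Transporters of the ABCB group gave 8 members, and of 7 tested none passed. ABCB1, the multidrug exporter P-glycoprotein, had 32.9 and 31.0 CPM in the DKO libraries and 34.6 and 28.5 CPM in the control libraries. The DKO values lay between the control values, and the difference was 0.03 (SE 0.20, edgeR adjusted p = 0.952). ABCB4, its neighbour on chromosome 7, which carries phosphatidylcholine into bile, had 11.8 and 8.46 CPM in DKO and 6.30 and 7.04 CPM in control (0.59, SE 0.27, edgeR adjusted p = 0.230). ABCB11, the bile salt export pump, had 6 and 13 counts in DKO and 1 and 1 in control and was not tested. The ratio of its summed counts was 7.90 (exact 95% interval 1.90 to 69.9, counting error alone), and without a filter its edgeR adjusted p = 0.0758.

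Mitochondrial transporters make up most of the remaining group. ABCB6, a porphyrin transporter, had 63.2 and 70.4 CPM in DKO and 66.9 and 81.9 CPM in control (-0.15, edgeR adjusted p = 0.742). ABCB10, which takes part in haem synthesis, had 50.4 and 50.7 CPM in DKO and 51.9 and 49.8 CPM in control, with the DKO values between the control values (0.0026, SE 0.19). ABCB8 had 29.4 and 32.0 CPM in DKO and 35.0 and 42.7 CPM in control (-0.33, edgeR adjusted p = 0.403). The lysosomal peptide transporter ABCB9 had 4.67 and 3.59 CPM in DKO and 5.99 and 7.44 CPM in control, and missed the threshold (-0.71, edgeR adjusted p = 0.184), with -0.89 without control replicate 1 (edgeR adjusted p = 0.0494) and -0.52 without control replicate 2 (edgeR adjusted p = 0.521).

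The ABCC group, the multidrug resistance proteins and their relatives, gave 9 members, and of 7 tested none passed. Of the 7, 6 had negative log2 fold changes and 4 lay below control without overlap, which 26.2% of all tested genes did. The median was -0.33 against 0.0015 over all tested genes. With spike-in totals it was -0.98 against -0.68 over all genes. Relative to the median gene of the same fit, the group lay lower by values between -0.46 and -0.19 over the alternatives. ABCC2, which exports bilirubin glucuronides into bile, had 57.5 and 42.9 CPM in the DKO libraries and 83.3 and 70.8 CPM in the control libraries. Both DKO libraries lay below both control libraries, and the fitted log2 value of -0.61 (SE 0.20) missed the threshold (edgeR adjusted p = 0.0971). Without control replicate 2 the value was -0.70 (edgeR adjusted p = 0.0328), while leaving out DKO replicate 2 gave -0.43 (edgeR adjusted p = 0.721).

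ABCC3, the exporter of conjugates toward the blood side, had 9.83 and 8.70 CPM in the DKO libraries and 13.8 and 12.6 CPM in the control libraries (-0.50, SE 0.24, edgeR adjusted p = 0.255). ABCC5, a nucleotide exporter, had 58.5 and 47.1 CPM in DKO and 70.2 and 63.0 CPM in control (-0.33, SE 0.20, edgeR adjusted p = 0.372). Both lay below control without overlap. ABCC4, which exports cyclic nucleotides, had 66.4 and 66.9 CPM in DKO and 81.5 and 62.8 CPM in control, which overlapped (-0.10, edgeR adjusted p = 0.833). ABCC1, a broad exporter of glutathione conjugates, had 41.2 and 42.4 CPM in DKO and 40.4 and 43.3 CPM in control, and differed by 0.0091 (SE 0.20, edgeR adjusted p = 0.986).

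The 3′ untranslated regions of the members were searched for UAUUUAU, a heptamer of the kind that TTP and Brf1 bind, written TATTTAT in the transcript sequences of GENCODE 29. It occurred in 14 of 62 members (22.6%) and, among genes tested with an annotated region, in 12 of 50 members (24%) and in 36.1% of 11902 genes. The median length of the longest annotated region was 1550 bases in the tested members and 1662 bases in all tested genes. None of UGT2B4, ABCG8, CYP19A1 or CYP2B6 held the heptamer. The 12 tested members with it had a median log2 fold change of 0.12, between -0.33 and 1.32, and none passed. The 38 without it had a median of 0.05. Over all tested genes the medians were 0.04 with the heptamer and -0.03 without it, a gap of similar size. Sites of 4 members are shown as an element of the kind that the knocked-out proteins bind, with the heptamer in capitals and positions on hg38. The CYP3A5 site belongs to the transcript with the longest annotated 3′ region. It lies nearer the start of the gene (99648194 to 99680026, minus strand) than its 3′ end, so other CYP3A5 transcripts may lack it. CYP3A5 counts among the 12 tested members through this transcript alone, and it sets their upper value of 1.32. Which CYP3A5 transcripts these cells make was not tested.
CYP3A5 (chr7:99676312-99676334, minus strand): gctgttatTATTTATcgtgtaca
CYP1B1 (chr2:38070138-38070160, minus strand): gactctagTATTTATgggtggat
GSTM3 (chr1:109734487-109734509, minus strand): gaatgcatTATTTATtgctgtgt
ABCC4 (chr13:95021465-95021487, minus strand): gcaacaaaTATTTATacatacaa
Of these 4, CYP3A5 and GSTM3 lay above control without overlap, CYP1B1 and ABCC4 overlapped, and none passed, as given above.

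Genes that serve the same pathway without being members were taken from 6 lists with 91 genes, of which 70 were tested. Of the 70, 0 rose, 2 fell and 68 did not pass. Over all tested genes, 2.24% were called higher and 3.14% lower, so these counts lay near the background. Before adjustment, 6 of them were higher and 9 lower at an edgeR p under 0.05, beside the 9.57% and 10.6% of all tested genes given above. Neither DESeq2 nor limma-voom called any of them higher (0 each). UGDH, which makes the UDP-glucuronic acid that UGT enzymes use, had 195 and 191 CPM in the DKO libraries and 378 and 345 CPM in the control libraries. Both DKO libraries lay far below both control libraries (log2 fold change -0.89, SE 0.19, edgeR adjusted p = 0.0136). The call was lost without DKO replicate 1 (-0.89, edgeR adjusted p = 0.205), without DKO replicate 2 (-0.90, edgeR adjusted p = 0.189) and with spike-in totals (-1.56, edgeR adjusted p = 0.101).

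UGT8, which transfers galactose to ceramide, had 2.73 and 1.89 CPM in the DKO libraries and 8.05 and 5.52 CPM in the control libraries (-1.56, SE 0.33, edgeR adjusted p = 0.0135). It did not pass without DKO replicate 2 (-1.31, edgeR adjusted p = 0.176). Among 17 xenobiotic receptors and regulators, 15 were tested and none passed. The leading one was AHRR, the repressor of AHR, with 1.17 and 0.669 CPM in DKO and 2.48 and 2.64 CPM in control (-1.52, SE 0.43, edgeR adjusted p = 0.0535). AHRR reached the filter level of about 0.878 CPM in both control libraries but not in DKO replicate 2. The limit given above for members that met the filter in 1 clone thus holds for AHRR too. AHRR was past the threshold when control replicate 1 was left out (-1.60, edgeR adjusted p = 0.0152), without a filter, with a minimum mean of 1 CPM and with spike-in totals. Without DKO replicate 2 it was -1.14 (edgeR adjusted p = 0.504). AHR itself differed by -0.28 (edgeR adjusted p = 0.457). NR1I2, which encodes PXR, had 1 and 1 counts in DKO and 4 and 9 in control, and NR1I3, which encodes CAR, had no count.

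The leading members of the other lists did not pass. FDX1, the electron donor of mitochondrial P450 enzymes, differed by 0.60 (edgeR adjusted p = 0.203), with 0.88 without control replicate 1 (edgeR adjusted p = 0.0258) and 0.35 without control replicate 2 (edgeR adjusted p = 0.631). The amine oxidase MAOB differed by -0.54 (edgeR adjusted p = 0.111) and the anion transporter SLC22A9 by 0.64 (edgeR adjusted p = 0.0919). SLC22A9 was at 0.88 without control replicate 1 (edgeR adjusted p = 0.00404) and at 0.43 without control replicate 2 (edgeR adjusted p = 0.365). None of the 8 electron donors, the 21 tested enzymes of oxidation, reduction and hydrolysis, or the 7 tested solute carriers passed with all 4 libraries.

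**Figure D4:**
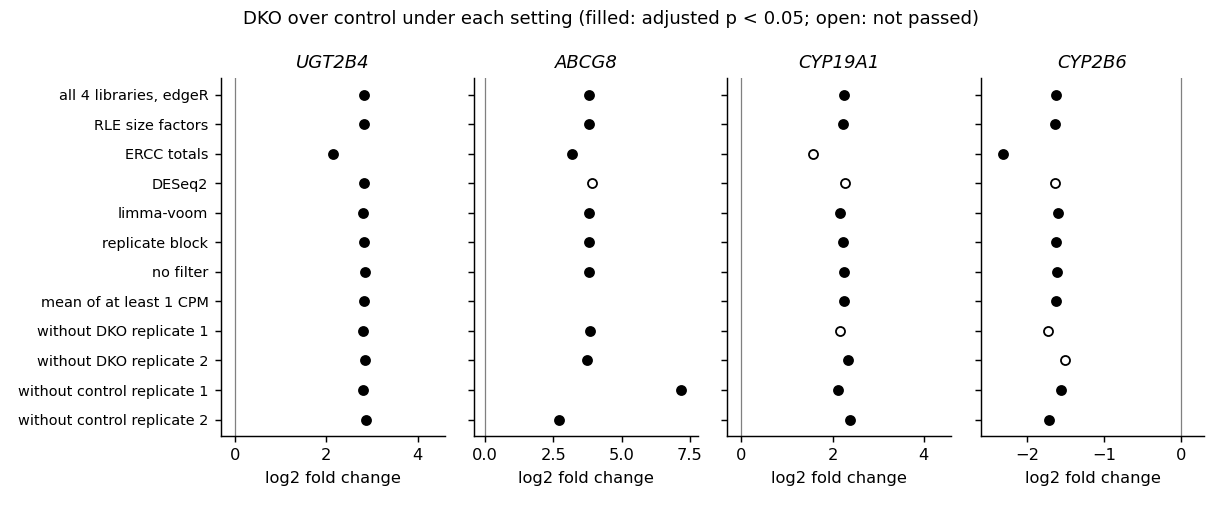
Log2 fold change of DKO over control (horizontal axes) for the 4 members that passed, under the analysis of all 4 libraries and each alternative, with filled points for an adjusted p under 0.05 and open points otherwise. UGT2B4 stays filled throughout, ABCG8 and CYP19A1 have open points and CYP2B6 is open with DESeq2 and when either DKO library is left out, and ABCG8 has no point at a minimum mean of 1 CPM.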

How the data were processed

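The authors deposited 1 table of raw read counts per gene symbol and library, with 42261 features, 92 of them ERCC spike-ins. Per the submitters' processing notes, STAR 2.5.3a, featureCounts of Subread 1.6.3, DESeq2 and the build hg38 were used. No source used here gives the annotation, the strand setting or the treatment of reads with several matches. The deposited counts of DKO and control were fitted with edgeR 4.0.16 under R 4.3.3 (filterByExpr, TMM factors, group as the only term, spike-ins left out). The fit was also run on simulated data with independent libraries. Such data cannot cover the deviations of same-numbered libraries, which correlated at 0.470 here. Spike-ins made up between 0.946% and 2.10% of counts. A single gene with 2 libraries against 2 cannot reach an exact 2-sided permutation p below 0.333, and the edgeR p-values rest on the spread shared between genes. Adjusted p-values cover all 13359 tested genes. Alternatives used limma 3.58.1 and DESeq2 1.42.0. The authors' counts were also divided by union exon length from GENCODE 29 (all 62 members matched) and scaled to 1000000 per library (TPM). Libraries of a clone differed beyond sampling noise (chi-square per degree of freedom 29.8 in DKO and 36.1 in control). Members, lists and tests were chosen with earlier results of these data known. By rule the text names every called member, the 3 with the highest CPM per family, the leading member of families without a call, and up to 3 called or the leading gene per companion list. Other members were named to complete a family, after their values were seen. Reads carry no molecular identifiers, so intervals cover counting error. Some genes that these rules take in are not reported here.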

Additional observations from a re-analysis of the deposited data

How the results depend on the processing

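The 11 alternatives were other size factors (RLE), spike-in totals, DESeq2, limma-voom, no filter, a minimum mean of 1 CPM, the replicate number as a block, and leaving out each library. Against 3 members higher and 1 lower, DESeq2 called 1 and 0, the replicate block 8 and 8, and the fit without a filter 4 and 2. Without 1 library, between 2 and 4 members were higher and between 0 and 4 lower. Against 0 companion genes higher and 2 lower, the replicate block called 9 and 14, the fit without a filter 1 higher, and fits without 1 library 0 to 2 higher and 0 to 6 lower. Over all genes, 718 calls became 329 with spike-in totals, 4021 with the replicate block, 1194 without a filter and 237 to 2193 without 1 library. The labels state no pairing; deviations of same-numbered libraries correlated at 0.470, and the block, besides raising counts, turned no sign of the members and companion genes compared. Calls gained there include ABCG2 (-0.77) and ABCC2 (-0.62). The cause of these shifts was not tested.

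Spike-in totals lowered the log2 fold change of the median gene by 0.68, so directions are relative to the median gene. Signs turned there for CYP1A1 (-0.60), CYP1B1 (-0.55), CYP4F3 (-0.46), CYP26B1 (-0.58), CYP20A1 (-0.47), GSTP1 (-0.46), GSTO1 (-0.46), GSTK1 (-0.63), GSTM3 (-0.29), SULT1A1 (-0.11), SULT1C4 (-0.48), ABCB1 (-0.62), ABCB4 (-0.069), ABCB10 (-0.68), ABCC1 (-0.69), ABCG1 (-0.16) and FDX1 (-0.044), none of them called. Without 1 library, signs turned for CYP1B1 (-0.035 to 0.26), CYP2J2 (-0.34 to 0.23), CYP2R1 (-0.33 to 0.0031), CYP4F3 (-0.23 to 0.42), CYP26B1 (-0.10 to 0.42), GSTK1 (-0.070 to 0.25), SULT1A1 (-0.036 to 1.06), ABCB1 (-0.080 to 0.14), ABCB6 (-0.31 to 0.035), ABCB10 (-0.023 to 0.024), ABCC1 (-0.069 to 0.086) and ABCC4 (-0.25 to 0.064), none called. ABCG8 fell below the minimum mean of 1 CPM and has no value there. Depth limits the members under about 1 CPM, which rest on few reads in each library.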
